A study of Homo sapiens with 6 samples.

Results

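Cadherins and catenins form the adhesion complexes that join neighbouring cells, and 10 of their genes were followed here in U87MGR, a highly invasive glioma line, in U87MGL, a non-invasive line, and in U87MG, the glioblastoma line from which both were derived. The genes were chosen by name, with earlier results of these data known. They are the cadherins CDH2, CDH4, CDH6, CDH11 and CDH13, the protocadherin PCDH7, and the catenins CTNNA1, CTNNA2, CTNNB1 and CTNND1. Of these 10, 7 had at least 1 probe set (a group of short probes that reads 1 transcript) annotated to that gene alone, out of 19775 genes so represented on the array, and all 7 reached the signal level required for testing. CTNND1 was read only by 4 probe sets that the annotation shares with the readthrough transcript TMX2-CTNND1, and CDH4 and CDH13 were not analysed here.

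Each line was measured on 2 arrays, 6 in all. U87MGR and U87MGL came out of 4 rounds in which U87MG cells were injected into the striatum of nude mice, recovered from the dissociated brain and returned to serum-containing culture, so each derivative is a selected population of one established line. The arrays are titled as biological replicates and carry the line names U87MGR2 and U87MGR3, and U87MGL2 and U87MGL3, with no word on what the numbers mean; the U87MG arrays are of the parental cells. The labels name no deleted or added gene and do not say that cultures were separate, so p-values measure the spread between these samples, which may be technical.

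Classical cadherins are calcium-dependent adhesion receptors whose cytoplasmic tails bind beta-catenin (CTNNB1) and p120-catenin (CTNND1). Beta-catenin recruits an alpha-catenin, which couples the complex to actin filaments. CTNNA1 encodes the broadly expressed alpha-E-catenin and CTNNA2 the neural alpha-N-catenin, which in neurons stabilises synapses and restrains branched actin assembly. Beta-catenin is also the transcriptional effector of the Wnt pathway, the pathway of the Frizzled receptor in the title of the series. N-cadherin (CDH2) is the main cadherin of neural and mesenchymal cells, and gliomas generally express it in place of the epithelial E-cadherin (CDH1).

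CTNNA2 was the 1 member called between invasive and non-invasive cells, where 0.158% of all tested genes were called. It was 4.25-fold higher in U87MGR than in U87MGL, and 2.77-fold lower in U87MGL than in the parental line. These folds rest on 1 probe set, which was near the dim end of the array in U87MGL. PCDH7 was lower in both derivatives than in U87MG, by 1.86-fold in U87MGR and by 1.94-fold in U87MGL. Against U87MG, 3.3% of all tested genes were called in U87MGR and 4.82% in U87MGL. None of the classical cadherins with a probe set of their own (CDH2, CDH6 and CDH11), and neither CTNNA1 nor CTNNB1, passed the test in any of the 3 comparisons. A gene was called where limma's moderated two-sided test, adjusted over 14513 genes by the Benjamini-Hochberg method, gave a p under 0.05.

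The sequences around the annotated starts of CTNNA2 and PCDH7 are shown because these are the members with a called difference. They are RefSeq sequences of build GRCh38.p14 on the plus strand, running from 250 bases before to 50 bases after a start. Capitals mark the letters CTTTGA or their reverse complement, the core bound by TCF/LEF, the DNA-binding partners of beta-catenin. RefSeq gives CTNNA2 4 such windows on chromosome 2, of which the upstream one, chr2:79185127-79185426, and the most CpG-rich one, chr2:79512801-79513100, are printed. PCDH7 has 1, chr4:30720119-30720418.
CTNNA2 upstream start: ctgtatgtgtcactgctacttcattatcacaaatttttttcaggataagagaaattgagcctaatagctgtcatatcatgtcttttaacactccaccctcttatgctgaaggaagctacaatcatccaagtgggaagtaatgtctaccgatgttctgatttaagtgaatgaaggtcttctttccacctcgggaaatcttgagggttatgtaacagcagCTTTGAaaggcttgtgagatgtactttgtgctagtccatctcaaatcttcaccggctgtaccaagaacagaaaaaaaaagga
CTNNA2 CpG-rich start: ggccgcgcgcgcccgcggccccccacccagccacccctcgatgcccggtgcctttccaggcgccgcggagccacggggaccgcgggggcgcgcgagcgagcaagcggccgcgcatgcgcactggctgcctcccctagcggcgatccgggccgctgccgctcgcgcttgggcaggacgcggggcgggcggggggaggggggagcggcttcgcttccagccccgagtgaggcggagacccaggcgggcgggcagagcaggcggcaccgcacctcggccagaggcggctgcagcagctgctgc
PCDH7 start: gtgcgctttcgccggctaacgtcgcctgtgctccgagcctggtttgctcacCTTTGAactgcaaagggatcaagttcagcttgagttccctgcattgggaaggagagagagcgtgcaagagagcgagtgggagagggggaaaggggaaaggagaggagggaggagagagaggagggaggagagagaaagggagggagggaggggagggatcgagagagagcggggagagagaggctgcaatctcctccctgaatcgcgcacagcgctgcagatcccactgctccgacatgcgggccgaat

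The CTNNA2 windows differed in composition. The CpG-rich one held 43 CpG dinucleotides at 80.0% GC, against 2 or 3 CpG dinucleotides at 31.3% to 39.3% GC in the 3 others. The PCDH7 window held 16 at 60.3% GC, and the median of 35114 windows of the same length was 14 at 58.7% GC. On both strands, CTTTGA occurred once in the upstream CTNNA2 window and once in the PCDH7 window, and it occurred in 12.9% of all windows. CACCTG, the E-box bound by the cadherin repressors of the SNAI and ZEB families, was not in the printed windows and was in 20.6% of all windows. These matches describe the sequence in the windows. Windows were also found for CDH2, CDH4, CTNNA1 and CTNNB1, 6 members in all, and not for CDH6, CDH11, CDH13 and CTNND1.

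Array medians lay between 5.29 and 5.35 (log2). Spiked-in control RNA placed U87MGR replicate 1 with both U87MGL arrays, U87MGR replicate 2 with U87MG replicate 1, and U87MG replicate 2 apart, with array distances of 0.90 to 1.44 inside a batch and 5.59 to 8.84 across batches. No batch held both U87MGL and U87MG. With batches as a block, U87MGR is thus read against U87MGL from U87MGR replicate 1 alone. Against U87MG it is read from U87MGR replicate 2 alone, so the block of 2 batches repeats fits with 1 array left out. For RNA quality, GAPDH signal at the 3′ end exceeded that at the 5′ end by 0.24 (log2) on U87MGR replicate 2, and by 0.03 to 0.07 on each other array. That of actin was 0.25 to 0.39 in the derivatives and -0.01 and 0.22 in U87MG. All 6 measured markers of a mesenchymal glioma line reached the signal level, vimentin (VIM) among them at 14.3 to 14.5. Of 7 astrocyte markers, GJA1 was at 11.7 to 12.9 and SLC1A3 at 8.69 to 10.4 over the 6 arrays, GFAP, SLC1A2 and ALDH1L1 were at 5.05 to 6.02, and AQP4 and S100B lay below the level of 4.73 required for testing.

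The 3 comparisons use the same 6 arrays and share groups, so their results are not independent of each other. A derivative that differs from the parental line in bulk RNA may hold fewer cells of one kind or less of the RNA per cell, and these cannot be told apart here. Levels of different genes are not compared, since each probe set has its own brightness.

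**Figure D1:**
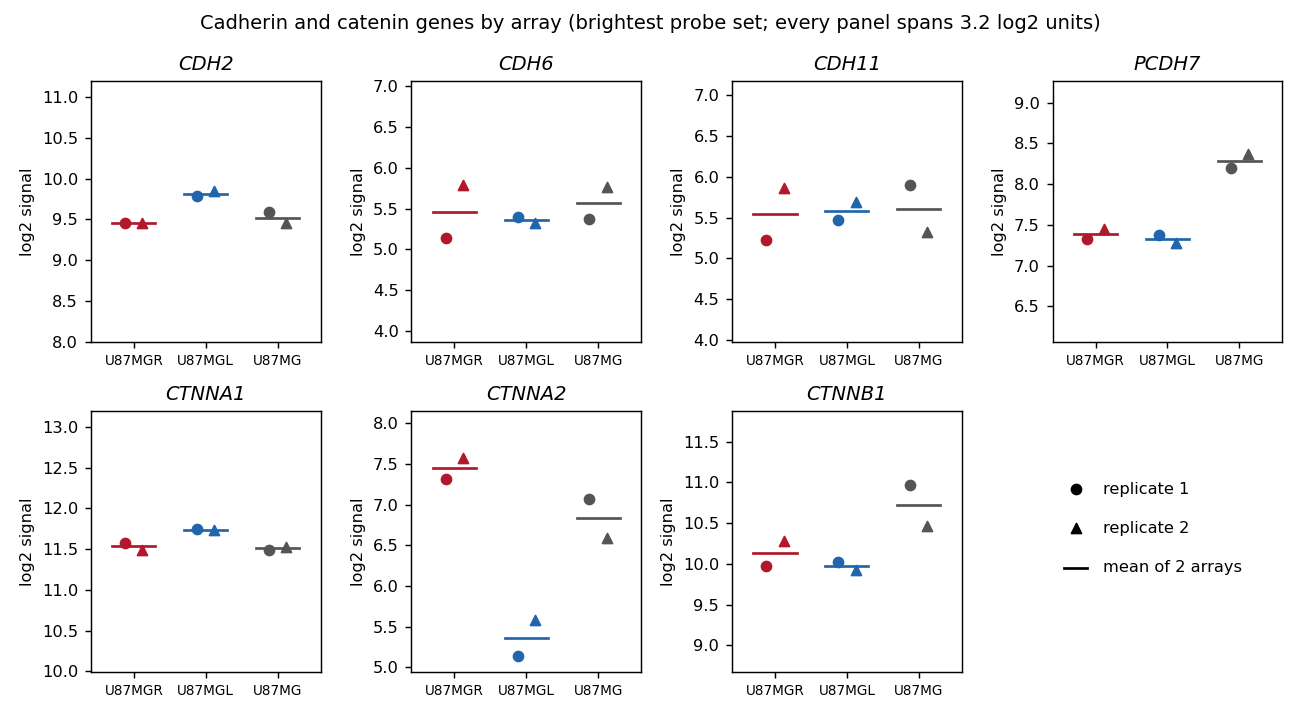
Log2 signal of the brightest probe set of each of the 7 genes, for U87MGR, U87MGL and U87MG from left to right. Circles and triangles are replicates 1 and 2, lines are means of 2 arrays, and every panel has the same height in log2 units; CTNNA2 shows U87MGR highest and U87MGL lowest, and PCDH7 shows both derivatives below U87MG.

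CDH2, the neural cadherin, had log2 signals of 9.46 and 9.45 in U87MGR, 9.79 and 9.85 in U87MGL, and 9.59 and 9.46 in U87MG. Both U87MGL arrays lay above the other 4, and the U87MGR and U87MG arrays overlapped. The difference between U87MGR and U87MGL was -0.36 (SE 0.15, 95% interval -0.71 to -0.01, limma adjusted p = 0.553), and that between U87MGL and U87MG was 0.30 (SE 0.15, 95% interval -0.06 to 0.65, adjusted p = 0.282). Both are larger than the SD of any group (0.01 in U87MGR, 0.04 in U87MGL, 0.09 in U87MG), and neither passed the test over all genes. U87MGR and U87MG differed by -0.06 (95% interval -0.42 to 0.29, limma adjusted p = 0.85).

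The second CDH2 probe set, 203441_s_at, gave the same order of means. It read 7.99 and 7.23 in U87MGR, 8.24 and 8.31 in U87MGL, and 8.15 and 7.49 in U87MG. U87MGL was again highest, while U87MGR replicate 2, the array with the larger GAPDH 3′ minus 5′ difference, was lowest; the part of RNA quality in this was not tested.

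CDH11, a mesenchymal cadherin first described in osteoblasts, ranged from 5.22 to 5.89 over the 6 arrays. Its groups overlapped in every comparison, and its differences of -0.03, -0.06 and -0.03 (U87MGR against U87MGL, then each derivative against U87MG, U87MGR before U87MGL) were smaller than the SDs within U87MGR (0.46), U87MGL (0.15) and U87MG (0.41). Each 95% interval reached at least 0.59 to either side of 0, so a difference of that size cannot be told from none at this precision. A second probe set, 207173_x_at, varied more, with 4.97 and 6.29 in U87MGR, 5.11 and 5.90 in U87MGL, and 6.19 and 4.95 in U87MG. Its replicates stood further apart than any 2 group means.

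CDH6, a cadherin of kidney and of the developing nervous system, ranged from 5.14 to 5.79. The groups overlapped here too, with a difference of 0.10 for U87MGR against U87MGL, and of -0.11 in U87MGR and -0.21 in U87MGL against U87MG (SE 0.25 each, limma adjusted p = 0.936, 0.849 and 0.656). Of its 6 probe sets 4 lay below the level required for testing, as did 2 of 4 for CDH11, so both genes were read near the dim end of the array.

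PCDH7, a protocadherin of brain and heart, does not bind beta-catenin through its tail as the classical cadherins do. Its log2 signals were 7.33 and 7.45 in U87MGR, 7.37 and 7.28 in U87MGL, and 8.20 and 8.37 in U87MG. All 4 derivative arrays lay below both parental arrays, and the derivatives overlapped each other. The difference from U87MG was -0.90 in U87MGR (SE 0.16, adjusted p = 0.0357) and -0.96 in U87MGL (SE 0.16, adjusted p = 0.024) in limma, and U87MGR and U87MGL differed by 0.06 (95% interval -0.31 to 0.43, adjusted p = 0.939).

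A second PCDH7 probe set, 228640_at, showed a wider gap. It read 6.80 and 7.06 in U87MGR, 6.12 and 5.72 in U87MGL, and 8.66 and 9.26 in U87MG, so that the groups stood in 3 separate steps. With all 32805 probe sets at the signal level tested at once in limma, it was lower than in U87MG, with log2 fold changes of -2.03 in U87MGR (SE 0.26, adjusted p = 0.0427) and -3.04 in U87MGL (SE 0.26, adjusted p = 0.0136); the difference of 1.01 between U87MGR and U87MGL was not called (adjusted p = 0.469). The 2 other probe sets at this level, 205535_s_at and 210273_at, were below both U87MG arrays in all 4 derivative arrays, with mean differences of -0.93 and -0.54 in U87MGR and -0.90 and -0.83 in U87MGL, and were not called. These 4 probe sets of PCDH7 thus had the same direction and differed in size, and what part of the gene each reads is not given in the files.

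The PCDH7 calls against U87MG did not hold in every fit. Within the spike-in batch of U87MGR replicate 2 and U87MG replicate 1 the difference was -0.75, against -0.90 over all arrays. The call in U87MGR was lost without either U87MGR array, without either U87MGL array, without U87MG replicate 2, with the replicate number as a block (adjusted p = 0.0533), with 2 or 3 spike-in batches as a block (0.145 and 0.0971) and with all probe sets tested at once (0.0672). The call in U87MGL was lost when any one of the 4 derivative arrays or U87MG replicate 2 was left out, and with either batch block (adjusted p = 0.492 and 0.252). The difference stayed between -0.81 and -0.98 in U87MGR and between -0.87 and -1.04 in U87MGL with 1 array left out. Leaving out an array of the line not compared kept it at -0.90 in U87MGR and -0.96 in U87MGL, and changed only the estimate of its spread. In U87MGR the block of 2 batches is the fit without U87MGR replicate 1 (-0.84). The block of 3 batches gave the within-batch difference of -0.75, so these are not separate checks.

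CTNNA1, the alpha-catenin of most tissues, read 11.6 and 11.5 in U87MGR, 11.7 and 11.7 in U87MGL, and 11.5 and 11.5 in U87MG. Both U87MGL arrays lay above the other 4, with differences of -0.21 for U87MGR against U87MGL (SE 0.15, limma adjusted p = 0.731) and 0.23 for U87MGL against U87MG (SE 0.15, adjusted p = 0.378). U87MGR and U87MG differed by 0.02 (95% interval -0.32 to 0.37). No comparison was called.

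The 4 other CTNNA1 probe sets did not all share this order. U87MGL had the highest mean in 200765_x_at and 200764_s_at too. 215883_at had its highest mean in U87MGR, with overlapping arrays: it read 5.60 and 6.07 in U87MGR, 5.63 and 5.70 in U87MGL, and 5.78 and 5.40 in U87MG. 1558214_s_at had its highest mean in U87MG, and read 8.85 and 7.36 in U87MGR, 9.09 and 8.96 in U87MGL, and 9.75 and 9.42 in U87MG, so all 4 derivative arrays lay below the parental ones and U87MGR replicate 2 was lowest by a wide margin. Its differences of -1.48 in U87MGR and -0.56 in U87MGL from U87MG were not called (SE 0.45, limma adjusted p = 0.158 and 0.522). U87MGR replicate 2 is the array with a GAPDH 3′ minus 5′ difference of 0.24; the part of RNA quality in this value was not tested.

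CTNNA2, the neural alpha-catenin, was read by 1 probe set, 205373_at. Its log2 signals were 7.32 and 7.58 in U87MGR, 5.14 and 5.58 in U87MGL, and 7.07 and 6.59 in U87MG. The U87MGL signals lay near the array medians of 5.29 to 5.35, with 4.73 the level required for testing. The low side of its differences was thus read near the dim end of the array. The 3 groups did not overlap: both U87MGR arrays were above both parental arrays, and both U87MGL arrays were below them. The means were 7.45 ± 0.18 in U87MGR, 5.36 ± 0.31 in U87MGL and 6.83 ± 0.34 in U87MG (SD, n = 2).

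U87MGR exceeded U87MGL by 2.09 on the log2 scale (SE 0.23, 95% interval 1.53 to 2.64, limma adjusted p = 0.0351), and CTNNA2 ranked 18 of 14513 genes by p. U87MGL was below U87MG by a log2 fold change of -1.47 (SE 0.23, limma adjusted p = 0.023). U87MGR exceeded U87MG by 0.62 (SE 0.23, 95% interval 0.07 to 1.17), which did not pass (adjusted p = 0.197). The larger step from the parental mean was thus that of U87MGL.

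The size of the CTNNA2 difference between U87MGR and U87MGL held while its call did not always. It was 1.96 within the spike-in batch of both U87MGL arrays and U87MGR replicate 1, and 1.87 to 2.30 with 1 array left out. The call was lost when any one of the U87MGR or U87MGL arrays was left out (adjusted p = 0.171 and 0.428 without U87MGR replicates 1 and 2, 0.154 and 0.0632 without U87MGL replicates 1 and 2), and held without either U87MG array. It was also lost with the replicate number as a block (adjusted p = 0.0524), with 2 and 3 spike-in batches as a block (0.428 and 0.168), and with all probe sets tested at once (0.0745). The call of U87MGL against U87MG was lost when any one of the 4 derivative arrays was left out and with either batch block, where the difference was -1.21 and -1.45. Without a U87MGR array the difference between U87MGL and U87MG stayed at -1.47, and only the estimate of its spread changed. For U87MGR against U87MGL, the block of 2 batches is the fit without U87MGR replicate 2. Both batch blocks gave the within-batch difference of 1.96, so these are not separate checks.

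**Figure D2:**
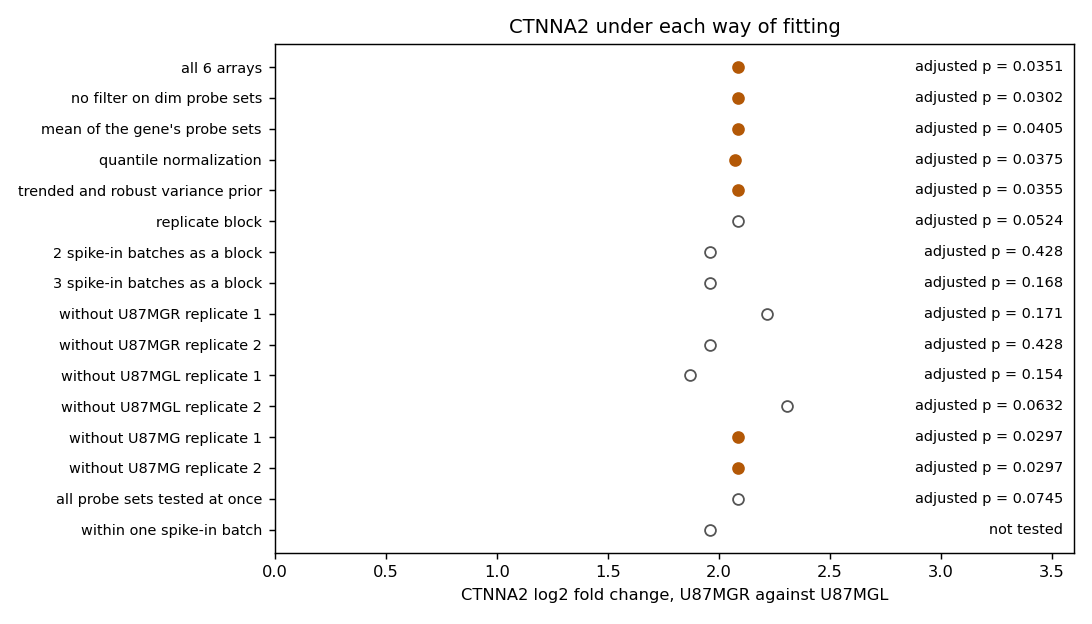
Log2 fold change of CTNNA2 in U87MGR against U87MGL (x axis) with all 6 arrays and under each alternative (rows); filled points passed limma's adjusted p under 0.05 and the adjusted p stands at the right. The values stay between 1.87 and 2.30 while the adjusted p runs from 0.0297 to 0.428.

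Of the neuronal markers, which bear on CTNNA2 as a neural gene, SYT1 differed most between U87MGR and U87MGL, with 7.20 and 7.53 in U87MGR, 6.76 and 6.48 in U87MGL, and 6.77 and 6.67 in U87MG (0.75 in U87MGR against U87MGL, limma adjusted p = 0.273). GAP43 differed nearly as much the other way, with 7.14 and 7.65 in U87MGR, 8.18 and 7.97 in U87MGL, and 7.15 and 5.38 in U87MG (-0.68 in U87MGR against U87MGL, adjusted p = 0.753, and 1.81 in U87MGL against U87MG, adjusted p = 0.096). The 2 markers thus stood on opposite sides between the derivatives. The mean log2 signal of 8 such genes was 6.63 and 6.90 in U87MGR, 6.74 and 6.75 in U87MGL, and 6.65 and 6.31 in U87MG, so U87MGL lay within the range of the other arrays. The part of such cells in the CTNNA2 result was not tested. Of the 8, ELAVL4, NEFL and STMN2 lay below the level required for testing in their mean, and none of the other 5 was called in any comparison (1 higher at an unadjusted p under 0.05 in U87MGR against U87MGL, 2 higher in each derivative against U87MG). Among all genes, 8.85% reached that p in U87MGR against U87MGL, 20.8% in U87MGR against U87MG and 23.3% in U87MGL against U87MG.

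The genes most like CTNNA2 over the 6 arrays, among 1572 tested genes with an SD of at least 0.5, were CRACD, STUM and LRCH2, with Pearson correlations of 0.981, 0.967 and 0.964. CRACD, which inhibits actin capping protein, read 7.05 and 7.35 in U87MGR, 4.54 and 5.35 in U87MGL, and 6.61 and 6.64 in U87MG. It shared with CTNNA2 the low pair of U87MGL arrays. For PCDH7 they were BBOF1, ANKRD10 and TBC1D17 (0.994, 0.993 and 0.99), which shared its high pair of U87MG arrays. These correlations rest on 6 points that share groups and batches, and describe likeness only.

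CTNNB1, beta-catenin, read 9.98 and 10.3 in U87MGR, 10.0 and 9.93 in U87MGL, and 11.0 and 10.5 in U87MG in its brightest probe set, 201533_at. All 4 derivative arrays lay below both parental arrays. The differences from U87MG were -0.59 in U87MGR (SE 0.21, 95% interval -1.09 to -0.08, limma adjusted p = 0.183) and -0.74 in U87MGL (SE 0.21, 95% interval -1.24 to -0.24, adjusted p = 0.0985). Neither was called, and U87MGR and U87MGL differed by 0.15 (95% interval -0.35 to 0.66).

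The 3 CTNNB1 probe sets did not share a direction. 1554411_at, like the brightest one, was below U87MG, with differences of -1.23 in U87MGR and -1.40 in U87MGL (limma adjusted p = 0.0896 and 0.0579 over all probe sets). 223679_at read 6.83 and 6.91 in U87MGR, 6.83 and 6.72 in U87MGL, and 6.16 and 6.20 in U87MG, which put all 4 derivative arrays above the parental ones, by 0.69 in U87MGR and 0.60 in U87MGL (adjusted p = 0.0976 and 0.106). No direction is therefore given for CTNNB1 as a gene.

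The 4 probe sets shared by CTNND1 (p120-catenin, which holds cadherins at the membrane) and its readthrough were not assigned to either transcript. Their differences were -0.24 to 0.22 between U87MGR and U87MGL, and -0.22 to 0.40 in U87MGR and 0.017 to 0.26 in U87MGL against U87MG. None was called. The widest gap without overlap was in 211240_x_at, with 9.26 and 9.23 in U87MGR against 8.88 and 8.82 in U87MG.

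**Figure D3:**
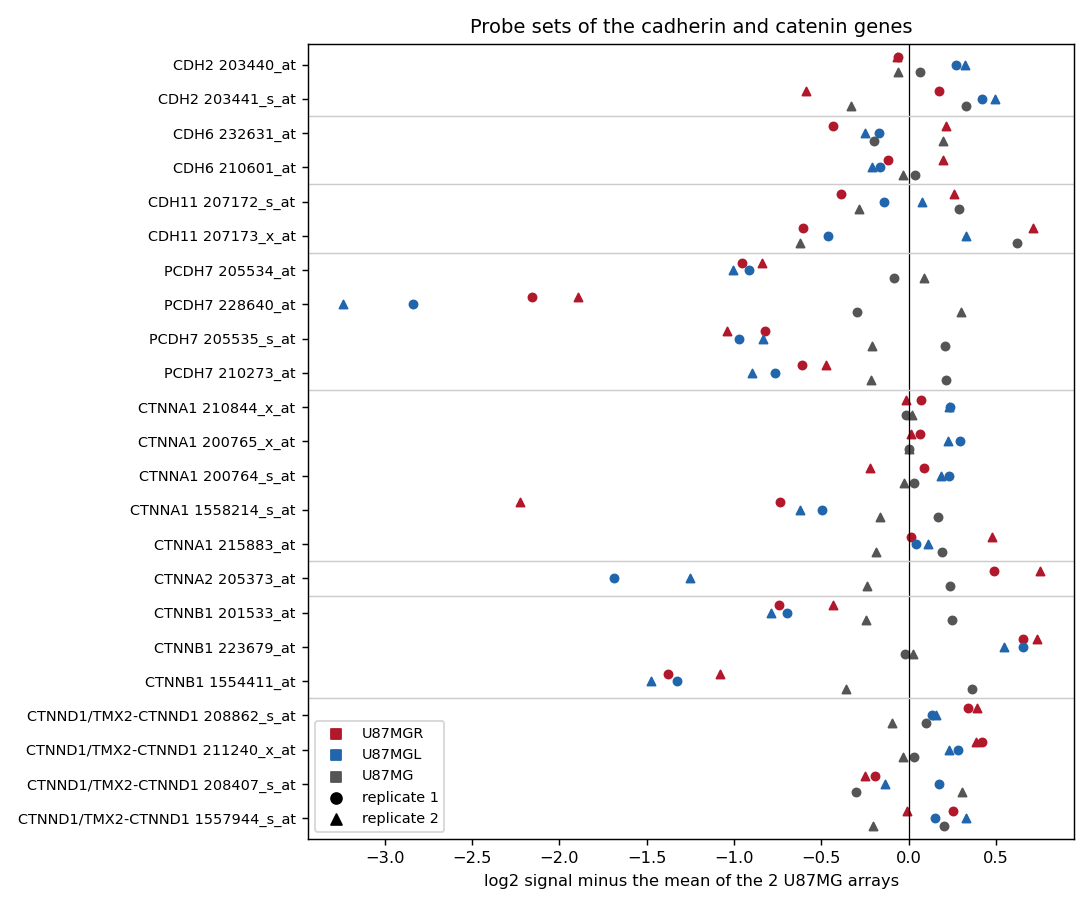
Each row is a probe set of a cadherin or catenin gene at or above the level required for testing; the x axis is log2 signal minus the mean of both U87MG arrays. Red, blue and grey are U87MGR, U87MGL and U87MG, circles and triangles replicates 1 and 2; the 4 rows of PCDH7 lie left of 0 in both derivatives, while the 3 rows of CTNNB1 lie on both sides.

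Counted over the 7 tested members, U87MGR against U87MGL had 1 higher (CTNNA2) and 0 lower, where 0.158% of all tested genes were called, 0.0413% higher and 0.117% lower. U87MGR against U87MG had 0 higher and 1 lower (PCDH7), with 3.3% of all genes called, 1.86% higher and 1.44% lower. U87MGL against U87MG had 0 higher and 2 lower (CTNNA2 and PCDH7), with 4.82% of all genes called, 3.02% higher and 1.8% lower. Over all probe sets at once, 0.0914%, 0.643% and 1.88% were called in the 3 comparisons. Without adjustment, p was under 0.05 for 1 higher and 1 lower member in the first comparison, 1 and 2 in the second and 0 and 3 in the third, against 8.85%, 20.8% and 23.3% of all genes in either direction.

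Arrays of the compared groups did not overlap in 3, 3 and 5 of the 7 members, against 46.6%, 48.4% and 56.4% of all genes, so non-overlap is a weak sign with 2 arrays a group. The median log2 fold change of the 7 members was 0.06, -0.06 and -0.21, and that of all tested genes 0.00, -0.01 and -0.02.

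**Figure D4:**
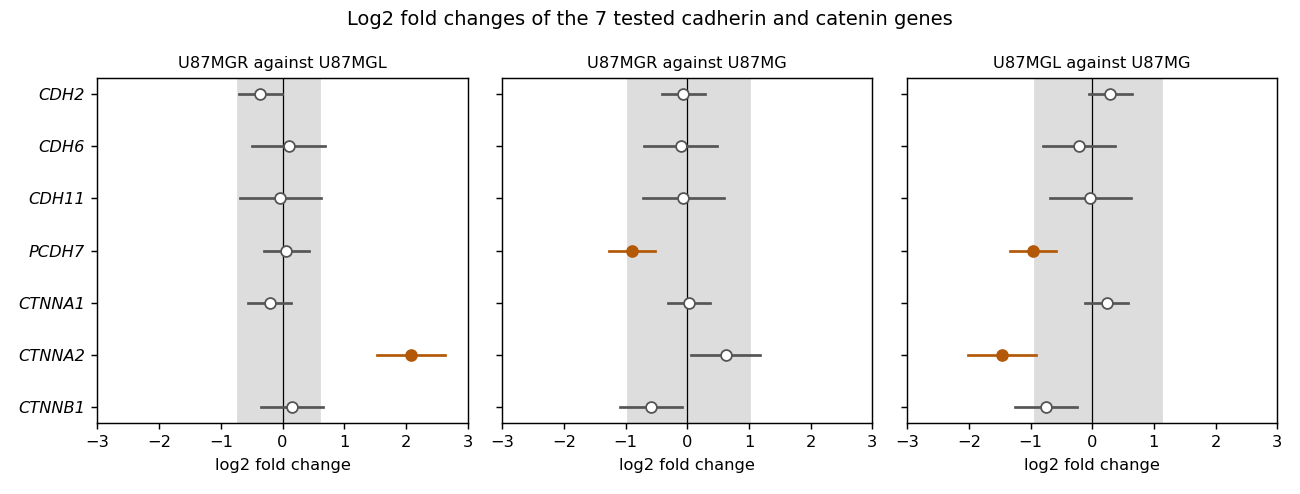
Log2 fold changes of the 7 tested genes in the 3 comparisons, with 95% intervals from limma as horizontal lines; filled points passed an adjusted p under 0.05 over all genes. Grey bands hold the central 95% of all tested genes. CTNNA2 lies outside the band in U87MGR against U87MGL (2.09) and in U87MGL against U87MG (-1.47). PCDH7 lies just outside it in U87MGL against U87MG (-0.96, with the band ending at -0.93).

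Of 18 further cadherins of the classical and related groups, 8 reached the level required for testing, as did 14513 of all 19775 genes. CDH1, the epithelial E-cadherin, read 3.26 to 3.71 over the 6 arrays, and CDH5, the endothelial cadherin, 3.49 to 3.84, both below that level in every array. None of the 8 was called between U87MGR and U87MGL (limma, 1 higher at an unadjusted p under 0.05), where CDH18 stood at 0.99 and CDH24 at 0.50. Among all genes, 8.85% reached that p in this comparison.

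CDH23, a cadherin of the hair-cell tip link, fell in both derivatives against U87MG. It read 5.19 and 4.78 in U87MGR, 5.25 and 5.54 in U87MGL, and 7.39 and 6.86 in U87MG, a difference of -2.14 in U87MGR (SE 0.24, adjusted p = 0.0184) and -1.73 in U87MGL (SE 0.24, adjusted p = 0.0179) in limma. All 4 derivative arrays lay below the parental pair. It was the 1 called gene of the 8 in both comparisons, where 3.3% of all tested genes were called in U87MGR and 4.82% in U87MGL. As the mean of its probe sets it was not called, at -0.70 and -0.53. Its derivative signals of 4.78 to 5.54 lay near the level of 4.73 required for testing. The low side of its differences was thus read near the dim end of the array.

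Of 18 tested protocadherins and large cadherins, none was called between U87MGR and U87MGL (in limma, unadjusted p under 0.05 was reached by 1 higher and 1 lower gene), with PCDH17 at 0.83 and PCDH9 at 0.66. PCDH18 fell against U87MG, with log2 fold changes of -1.86 in U87MGR (adjusted p = 0.0477) and -2.11 in U87MGL (adjusted p = 0.0284). FAT4, a giant cadherin of planar cell polarity and Hippo signalling, rose by 1.37 in U87MGL against U87MG (adjusted p = 0.0313). These were the only calls of the list, 0 higher and 1 lower in U87MGR and 1 higher and 1 lower in U87MGL. Of all tested genes, 3.3% and 4.82% were called in these 2 comparisons. At an unadjusted p under 0.05 in limma, 4 were higher and 4 lower in U87MGR against U87MG, and 4 and 3 in U87MGL against U87MG. Among all genes, 8.85% reached that p between U87MGR and U87MGL, and 20.8% and 23.3% against U87MG.

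No further catenin or armadillo relative was called in any comparison among 10 tested. At an unadjusted p under 0.05 in limma, 0 were higher and 1 lower in U87MGR against U87MGL, 1 and 1 in U87MGR against U87MG, and 1 and 0 in U87MGL against U87MG. The shares of all genes at that p were 8.85%, 20.8% and 23.3%. PKP4, a relative of p120-catenin, stood at -0.65 in U87MGR against U87MGL and at -0.79 against U87MG, and the neural delta-catenin CTNND2 at -0.34 in U87MGR against U87MGL and at 0.88 in U87MGL against U87MG. CTNNBIP1, which blocks the binding of beta-catenin to TCF proteins, stood at 0.61 in U87MGR and 0.54 in U87MGL against U87MG. CTNNA3, the third alpha-catenin, read 4.44 to 4.73 and lay below the level required for testing in its mean.

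Among 20 tested junction partners and actin linkers, none was called between U87MGR and U87MGL (in limma, unadjusted p under 0.05 was reached by 1 higher and 1 lower gene), where PTPN14 stood at 0.93 and AJUBA at -0.64. Against U87MG, ACTN4, an actin crosslinker, rose by 1.05 in U87MGR (adjusted p = 0.0364) and by 1.18 in U87MGL (adjusted p = 0.0226). AJUBA, a LIM protein that binds alpha-catenin, rose by 1.21 in U87MGL (adjusted p = 0.0391). The counts were 1 higher in U87MGR and 2 higher in U87MGL with none lower, where 1.86% and 3.02% of all genes were called higher. At an unadjusted p under 0.05 in limma, 2 were higher and 1 lower in U87MGR, and 6 and 1 in U87MGL. Of all genes, 8.85% reached that p in either direction between U87MGR and U87MGL, and 20.8% and 23.3% against U87MG. The list medians were 0.21 and 0.27, and those of all genes -0.01 and -0.02.

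Genes that process cadherins, 16 tested, held 1 call: the phosphatase PTPN1 rose by 0.77 in U87MGL against U87MG (limma adjusted p = 0.0474). In that comparison 4.82% of all tested genes were called. Between U87MGR and U87MGL, PSEN2 of the gamma-secretase complex stood at 0.57 and the sheddase ADAM10 at -0.40. Against U87MG in U87MGR, PTPRM stood at -0.71 and NUMB at 0.61. NUMB was read near the level of 4.73 required for testing, with 5.39 and 5.05 in U87MGR and 4.42 and 4.79 in U87MG. At an unadjusted p under 0.05, 1 was higher and 0 lower in U87MGR against U87MGL, 3 and 1 in U87MGR against U87MG, and 2 and 1 in U87MGL against U87MG. The shares of all genes at that p were 8.85%, 20.8% and 23.3%.

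Of 19 tested genes of beta-catenin destruction and its nuclear partners, CHD8, a chromatin remodeller that restrains beta-catenin, rose by 0.83 in U87MGL against U87MG (limma adjusted p = 0.0396) and stood at 0.80 in U87MGR (adjusted p = 0.0522). It was the 1 call of the list, in a comparison where 4.82% of all tested genes were called. LEF1, a DNA-binding partner of beta-catenin, stood at 1.23 in U87MGR against U87MG (adjusted p = 0.058). No member was called between U87MGR and U87MGL, with TLE3 at -0.65 and TCF7L2 at -0.47. At an unadjusted p under 0.05, 0 were higher and 1 lower in U87MGR against U87MGL, 3 and 0 in U87MGR against U87MG, and 3 and 1 in U87MGL against U87MG. The shares of all genes at that p were 8.85%, 20.8% and 23.3%.

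Since alpha-N-catenin restrains the ARP2/3 complex in neurons, that complex and its activators were also read, with 16 genes tested. None was called in any comparison. At an unadjusted p under 0.05 in limma, 3 were higher and 0 lower in U87MGR against U87MGL, 2 and 2 in U87MGR against U87MG, and 1 and 0 in U87MGL against U87MG. The shares of all genes at that p were 8.85%, 20.8% and 23.3%. ARPC1B, a subunit of the complex, stood at 0.59 and its activator WASF3 at 0.52 in U87MGR against U87MGL. ARPC5 and ABI1 stood at -0.70 and -0.67 in U87MGR against U87MG, and ARPC4 and ARPC5L at -0.69 and 0.58 in U87MGL against U87MG.

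None of 8 tested transcription factors known to repress cadherins was called. At an unadjusted p under 0.05 in limma, 0 and 0 were higher and lower in U87MGR against U87MGL, 2 and 3 in U87MGR against U87MG, and 1 and 2 in U87MGL against U87MG. The shares of all genes at that p were 8.85%, 20.8% and 23.3%. TWIST1 stood at 0.50 and TCF3 at -0.28 in U87MGR against U87MGL. Against U87MG, TWIST1 stood at -0.67 in U87MGR and -1.17 in U87MGL, ZEB1 at 0.64 in U87MGR and TCF4 at 0.71 in U87MGL.

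The calls in these related lists did not hold in every fit. Against U87MG, 3.3% of all tested genes were called in U87MGR and 4.82% in U87MGL. Leaving out an array of the line not compared left a difference unchanged and altered only the estimate of its spread. Counting the lists of cell type markers too, 15 pairs of a gene and a comparison were called. The call of 14 of the 15 was lost without at least 1 array, and none of the 15 changed sign. FAT4, PTPN1 and CHD8 lost their calls in U87MGL against U87MG whichever of the 6 arrays was left out, with adjusted p-values in limma of 0.054 to 0.141 for FAT4, 0.0614 to 0.273 for PTPN1 and 0.0527 to 0.301 for CHD8. AJUBA in U87MGL and ACTN4 in U87MGR lost them when any array other than U87MG replicate 1 was left out, and ACTN4 in U87MGL when any one of the 4 derivative arrays was left out. PCDH18 lost its call in U87MGR without either U87MGR array or U87MG replicate 2, and in U87MGL without either U87MGR array, U87MGL replicate 2 or U87MG replicate 2. With 1 array left out, CDH23 lost its call in U87MGR without either U87MGR array and in U87MGL without either U87MGL array, with a highest adjusted p of 0.143 and 0.0875. All 15 calls were lost when 2 spike-in batches were a block, and 14 of 15 with 3 batches, the exception being CDH23 in U87MGR. The adjusted p of CDH23 was 0.0735 and 0.0391 in U87MGR and 0.316 and 0.116 in U87MGL with 2 and 3 batches, at differences of -2.34 and -2.61 in U87MGR and -2.13 and -2.40 in U87MGL. With the replicate block 3 calls were lost, those of PTPN1 and CHD8 in U87MGL and PCDH18 in U87MGR. Read as the mean of their probe sets, PTPN1 at 0.31 and AJUBA at 0.82 in U87MGL lost their calls, as did CDH23.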

How the data were processed

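Total RNA of cultured cells was labelled with biotin and read on single-colour arrays, per the labels' protocols. The authors deposited 1 value per array for 54675 probe sets; from their range of 2.38 to 14.6 these are log2 signals. How the authors normalized these log2 signals before they were deposited was not given in the sources used here, and the main results use them unaltered. Precision is limited by 2 arrays per group, with a standard error of 0.19 in log2 fold change at the median gene.

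Of the probe sets, 41097 carried 1 gene symbol in the platform annotation, 1801 several and 11777 none; 41043 of the first were matched by gene number to the RefSeq genes of assembly GRCh38.p14, whose symbols were used. For each of 19775 genes, the probe set with the highest mean among those naming that gene alone stood for it. Of these genes, 14513 had a mean of at least 4.73 (log2), the 40th percentile over probe sets, and were tested. One limma model (version 3.58.1, R 4.3.3) with a mean per group was fitted to all 6 arrays, with 3 residual and 4.05 prior degrees of freedom, and p-values were adjusted over all genes tested. Probe sets were also fitted all at once, 32805 in number. The code of the fit was run on simulated arrays with known changes, independent noise and no batches. That run cannot show how the fit behaves with the batches of these arrays. Spike-in batches came from average-linkage clustering of 45 control probe sets.

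The members and gene lists were chosen with earlier results of these data known. All members are named. For each list, up to 3 called genes that rose most and 3 that fell most are named, or at most 2 uncalled genes with the largest change, as values. For each called member, the 3 genes most correlated with it are named. After group means were removed, equally numbered arrays correlated at 0.01, 0.11 and -0.09, so replicate numbers were not treated as pairs. The alternatives tried were other filters, probe sets, normalization, variance priors, blocks and left-out arrays.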

Additional observations from a re-analysis of the deposited data

Results flagged for a closer look

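CTNNA2 stood out because the derivatives lay on opposite sides of the parental line in every array. It was at 0.62 above U87MG in U87MGR and at a log2 fold change of -1.47 in U87MGL. The test of the difference between the derivatives is their own contrast, 2.09 on the log2 scale (limma adjusted p = 0.0351, or 0.0297 to 0.428 over the alternatives tried). No group held enough arrays for a test of outlying samples.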

How the results depend on the processing

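The counts of called members fell to 0 in many alternatives. For U87MGR against U87MGL the 1 higher call became 0 with the replicate block, with 2 or 3 spike-in batches as a block and with all probe sets tested at once (chosen after seeing the data), and was 0 to 1 with 1 array left out. For U87MGR against U87MG the 1 lower call became 0 under the same alternatives, and 0 to 1 with 1 array left out. For U87MGL against U87MG the 2 lower calls became 0 with either batch block, and 0 to 2 with 1 array left out. The other alternatives kept these counts. Over all genes, the 6 higher and 17 lower calls of U87MGR against U87MGL ranged from 0 to 8 and 0 to 32 over the alternatives, the 270 and 209 of U87MGR against U87MG from 1 to 486 and 0 to 391, and the 438 and 261 of U87MGL against U87MG from 0 to 883 and 0 to 667.

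No called member changed sign, and of 320 values of members under alternatives 28 did, all of uncalled differences; the cause was not tested. In U87MGR against U87MGL, CDH6 was at -0.22 with either batch block and -0.22 to 0.42 with 1 array left out. CDH11 was at 0.12 in its second probe set and -0.36 to 0.29 with 1 array left out. In U87MGR against U87MG, 2 batches as a block gave CDH6 0.21, CDH11 0.26 and CTNNA1 -0.018, and 3 batches gave CDH6 0.41 and CTNNA1 -0.00065. CTNNA1 was at -0.25 as the mean of its probe sets. The second probe sets gave CDH6 0.037, CDH11 0.053 and CTNNB1 0.69. With 1 array left out CDH6 was at -0.43 to 0.21, CDH11 at -0.39 to 0.26 and CTNNA1 at -0.018 to 0.068. In U87MGL against U87MG, CDH6 was at 0.44 and 0.63 and CDH11 at 0.62 and 0.33 with 2 and 3 batches, CDH11 at 0.010 with quantile normalization and -0.32 to 0.26 with 1 array left out, and CTNNB1 at 0.60 in its second probe set. Among the other named genes 6 of 642 values changed sign: CDH24 in U87MGR against U87MGL was at -0.031 with either batch block and -0.031 to 1.03 with 1 array left out, TCF3 in the same comparison at 0.061 as the mean of its probe sets, and ARPC4 in U87MGL against U87MG at 0.67 and 0.50 with 2 and 3 batches.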

Other observations

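Among the marker lists used to check the cells, a few genes of other roles differed. CHI3L1, a secreted glycoprotein typical of mesenchymal glioma, was lower than in U87MG by a log2 fold change of -3.05 in U87MGR (limma adjusted p = 0.0185) and -4.13 in U87MGL (adjusted p = 0.00795). The glutamate transporter SLC1A3 was lower than in U87MG, with log2 fold changes of -1.40 in U87MGR and -1.07 in U87MGL (limma adjusted p = 0.0185 and 0.0254). KRT18, a keratin of simple epithelia, was higher by 1.98 in U87MGL than in U87MG (limma adjusted p = 0.0237), with 6.58 and 7.54 in U87MGL against 5.13 and 5.03 in U87MG, while CDH1, EPCAM, ESRP1 and KRT19 of the same list lay below the level required for testing. With 1 array left out, CHI3L1 kept its call in U87MGL each time, and lost it in U87MGR without either U87MGR array. SLC1A3 lost its call in U87MGR without either U87MGR array and in U87MGL when any array other than U87MG replicate 1 was left out, and KRT18 without either U87MGR array, U87MGL replicate 2 or U87MG replicate 2. With 2 or 3 spike-in batches as a block none of these 5 calls held. None of the markers of endothelium (5 tested), microglia (3) or oligodendrocytes (3) was called in any comparison. At an unadjusted p under 0.05 in limma there was 1, MBP of oligodendrocytes, at -0.66 in U87MGL against U87MG. Among all genes, 23.3% reached that p in this comparison.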
